A study of Homo sapiens with 4 samples.

Results

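The genes described here encode small proteins that oral and other surface epithelia secrete against microbes and during inflammation. They were chosen by name: SAA1, SAA2, LCN2, PI3, SLPI, DEFB1, DEFB4A and DEFB4B, 8 genes in all. Of these, 7 were listed in the gene tables, among 29437 genes, and 5 were among the 12168 genes that reached a mean of at least 1 FPKM (reads scaled to gene length and library total, a level per length) and entered the test. DEFB4A has no row in the tables used here, and PI3 and DEFB1 lay below 1 FPKM and are given as values per library. The cells were CAL27, an established human oral squamous carcinoma line, given lentivirus to overexpress the chemokine CCL20 or labelled as negative control, and lysed after 48 h. Polyadenylated RNA, 1.5 µg a library, was sequenced from 2 libraries of each group. The labels do not say what the control virus carried. Nothing in the labels says that the libraries of a group came from separate cultures, so every p-value measures only the spread between these libraries, which may be technical.

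Serum amyloid A proteins are lipid-binding acute-phase reactants made mostly by the liver in systemic inflammation, and by epithelia locally. Lipocalin 2 starves bacteria by binding their iron-carrying siderophores, SLPI and PI3 (elafin) inhibit neutrophil serine proteases, and beta-defensins are cationic peptides that disrupt microbial membranes. In epithelial cells several of these genes are textbook targets of IL-1, IL-17 and NF-kappaB signalling, and human beta-defensin 2, the product of DEFB4A and DEFB4B, shares with CCL20 the receptor CCR6.

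Because SAA1 and SAA2 are near-identical neighbours, their coding sequences are shown first: they decide how far reads can be assigned to either copy. Both lie on chromosome 11 (GRCh38), SAA1 at 18266174 to 18269977 on the plus strand and SAA2 at 18239223 to 18248643 on the minus strand, 17530 bases apart. Over 366 coding bases without the stop codon (the main transcript of each gene in GENCODE 29), 355 were identical (97.0%) and 11 differed. A single difference lay in bases 1 to 180, and the longest identical run was 186 bases. The remaining 10 differences lay in bases 181 to 366, printed below 5′ to 3′ with the differing bases in capitals. With its introns this stretch spans chr11:18269284-18269852 for SAA1 and chr11:18245380-18245959 for SAA2.
SAA1: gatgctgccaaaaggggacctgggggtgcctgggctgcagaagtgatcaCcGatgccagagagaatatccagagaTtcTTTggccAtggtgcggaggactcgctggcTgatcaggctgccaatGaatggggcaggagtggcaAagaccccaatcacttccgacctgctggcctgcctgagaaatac
SAA2: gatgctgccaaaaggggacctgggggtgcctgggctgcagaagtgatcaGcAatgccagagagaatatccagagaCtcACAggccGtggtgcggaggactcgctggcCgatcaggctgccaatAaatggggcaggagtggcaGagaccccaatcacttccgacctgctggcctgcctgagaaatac
The first 180 coding bases, chr11:18266888-18269283 for SAA1 and chr11:18245960-18248011 for SAA2, are shown for contrast, since a read inside them distinguishes the copies only where it covers the capital.
SAA1: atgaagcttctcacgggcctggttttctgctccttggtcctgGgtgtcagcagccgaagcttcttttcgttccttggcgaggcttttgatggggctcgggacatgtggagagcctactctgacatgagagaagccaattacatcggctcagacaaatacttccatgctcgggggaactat
SAA2: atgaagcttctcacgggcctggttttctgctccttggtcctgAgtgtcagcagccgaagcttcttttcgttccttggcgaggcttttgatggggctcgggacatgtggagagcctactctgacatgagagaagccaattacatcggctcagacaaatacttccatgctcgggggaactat
Of all 100-base windows of the SAA1 mRNA, 16.9% also occurred in another gene's transcript, and of those of the SAA2 mRNA 36.6%. The other transcripts were those of the opposite copy and of SAA2-SAA4, an annotated readthrough of SAA2 into the next SAA gene. SAA2-SAA4 covers 267 of the 563 bases of that SAA2 transcript (47.4%) on the same strand and is not a row of the tables. The sources used here do not give the handling of reads that fit several genes. Values of the single copies are therefore uncertain, and their sum is given beside them. The windows of LCN2, SLPI, PI3 and DEFB1 were shared with no other gene.

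The libraries held between 13681862 and 17860695 reads on genes. The 2 overexpression libraries differed more from each other than the 2 controls did, by a chi-square over all genes. CCL20 itself, the check of the labels, had 188 and 202 reads in the controls and 372 and 303 in the overexpression libraries. Its log2 fold change was 0.95 (edgeR quasi-likelihood test, Benjamini-Hochberg adjusted p = 0.0143), and 0.06 (adjusted p = 0.916) in an edgeR fit with an offset for mRNA length. CCL20 was not called with an offset for gene length (0.49, edgeR adjusted p = 0.171) or on the TPM scale (0.46, 0.181). Its mRNA has 800 bases, and of 1057 other coding genes with 207 to 1271 bases, 557 had a larger log2 fold change. The median for that length range was 0.98. CCL20 thus did not stand out from other short mRNAs, and these reads alone do not settle whether it was overexpressed. Squamous identity was present, with all 12 epithelial markers listed and their summed level at 917 to 989 FPKM in controls and 974 to 1241 FPKM with CCL20. KRT5 stood at 453 ± 19.8 and 441 ± 112 FPKM (SD, n = 2 each), whereas KRT14, also a basal keratin, was between 0.712 and 1.11 FPKM. Of the 11 tested markers 3 rose (KRT17, SFN and EPCAM) and 2 fell (TP63 at -0.65 and DSG3 at -0.83 on the log2 scale, edgeR adjusted p = 0.0486 and 0.0197), and none of these 5 calls held with the mRNA length offset. Of 10 hepatocyte markers, the other main source of SAA mRNA, APOA1, APOA2, TTR, APOC3 and FGA had no row, and the summed level was 0.558 to 0.648 FPKM in controls and 0.350 to 0.377 FPKM with CCL20. Of 10 neutrophil markers, ELANE, PRTN3, CTSG and FPR1 had no row, and the sum was 0.961 to 1.04 and 1.15 to 1.16 FPKM. Lymphoid and myeloid (3.97 to 4.34 and 3.06 to 3.86 FPKM), fibroblast (4.74 to 5.59 and 2.97 to 3.51 FPKM) and endothelial marker sums (8.73 to 9.21 and 5.59 to 5.63 FPKM) were lower with CCL20. Of these lists 2, 1 and 1 genes were tested, with median mRNAs of 2878, 6727 and 4123 bases, and 0 were called. Their median log2 fold changes were 0.12, -0.51 and -0.51, and 0.04, 0.10 and -0.22 with the mRNA length offset. The part of such RNA in the results was not tested.

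The question put to these genes was whether their mRNA differed between CCL20-overexpressing and control cells. SAA1, LCN2, SLPI and DEFB4B rose between 1.93-fold and 3.42-fold, SAA2 did not pass the test, and no tested gene of the group fell. That is 4 of 5 higher, where 16.5% of all tested genes were called higher and 15.7% lower. No tested gene of the group was lower at an unadjusted p under 0.05 either, in the main edgeR fit of all 4 libraries, and DESeq2 called 0 lower. With 1 library left out, the lowest log2 fold changes were 1.40 for SAA1 and DEFB4B, 1.08 for SLPI and 0.54 for LCN2. Without a control library fewer of the 5 passed, and fewer of all genes, while without an overexpression library more of all genes passed. The median log2 fold change of the 5 was 1.19, against 0.00 over all 12168 genes tested. Both overexpression libraries lay above both controls in FPKM for 4 of the 5 tested genes, where 25.8% of all tested genes, of any length, did so. The share among short mRNAs was not computed. PI3 and DEFB1 were separated too, on at most 20 reads a library, and no share over genes at that level was computed. In bulk RNA, fewer cells that make a transcript and less of it per cell cannot be told apart. All of these mRNAs are short, and the calls depended on how mRNA length was treated, as given after the genes.

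**Figure D1:**
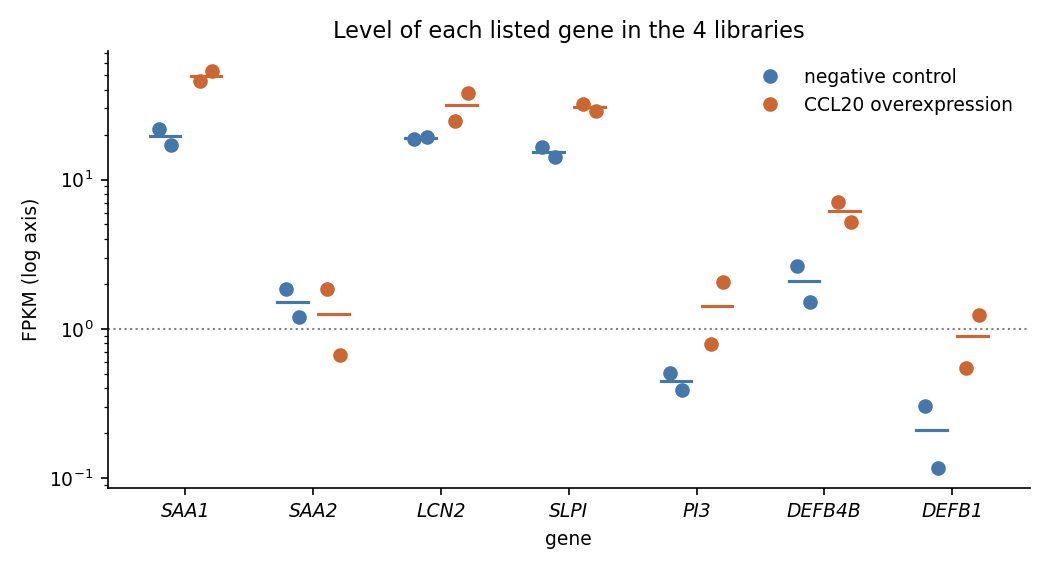
Level of each listed gene in the 4 libraries, in FPKM on a log axis. Points are libraries, horizontal bars are group means, and the dotted line is the mean of 1 FPKM needed for the test. SAA2 is the gene whose groups overlap, while SAA1, LCN2, SLPI, PI3, DEFB4B and DEFB1 lie higher in both overexpression libraries.

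SAA1, the inducible acute-phase serum amyloid, was at 21.8 and 17.2 FPKM in the controls and at 45.7 and 53.6 FPKM in the overexpression libraries, from 237, 244, 558 and 720 reads. The groups were separate, and the spread within each was small beside the gap between them. The mean went from 19.5 ± 3.25 to 49.6 ± 5.63 FPKM (SD, n = 2 each), a 2.96-fold rise with a log2 fold change of 1.56 (SE 0.22, edgeR adjusted p = 0.00434).

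SAA2, its near copy, had 56 and 48 reads in the controls and 63 and 25 with CCL20. These are 1.84 and 1.21 FPKM against 1.84 and 0.665 FPKM, so the groups overlapped, and the overexpression libraries differed 2.77-fold from each other. Its log2 fold change was -0.09 (SE 0.47, edgeR adjusted p = 0.898), with a 95% interval from -1.18 to 1.0. The sign depended on single libraries: the log2 fold change was 0.23 without control replicate 1 and 0.45 without overexpression replicate 2, but -0.37 without control replicate 2 and -0.92 (edgeR adjusted p = 0.0656) without overexpression replicate 1.

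With the reads of both copies summed, the serum amyloid pair was higher by 1.38 (SE 0.21) on the log2 scale (edgeR adjusted p = 0.00489), a value that does not depend on how reads were divided between SAA1 and SAA2. The division itself differed between libraries. SAA2 took 19.1% of the 293 reads on the pair in control replicate 1 (Wilson 95% interval 15.0 to 24.0%) and 16.4% of 292 in control replicate 2 (12.6 to 21.1%). In the overexpression libraries it took 10.1% of 621 reads (8.01 to 12.8%) and 3.36% of 745 (2.28 to 4.91%). Both shares with CCL20 were below both control shares, though the intervals of control replicate 2 and overexpression replicate 1 touched. The means were 6.75 ± 4.80% against 17.8 ± 1.89% (SD, n = 2 each), a difference of -11.0 percentage points. The intervals cover counting error only, and with 2 libraries a group an exact permutation test could not give a p below 0.333. The mRNAs of both copies are of like length, 615 and 610 bases (the median over each gene's principal coding transcripts). The main transcripts compared above have 615 and 563 bases. The chromosome 11 neighbour SAA4, a constitutive member of the family, had 1 read in each control, and 0 and 6 reads with CCL20.

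**Figure D2:**
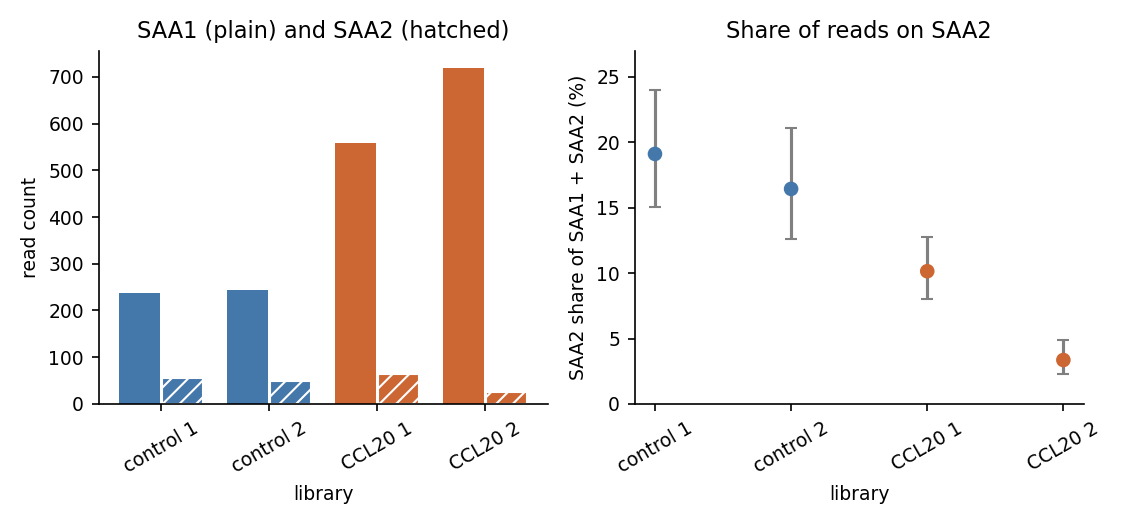
Reads on SAA1 (plain bars) and SAA2 (hatched bars) in each library, and at right the percentage of the pair's reads that fell on SAA2, with Wilson 95% intervals for counting error. SAA1 reads go from 237 and 244 to 558 and 720, and the SAA2 share is 10.1% and 3.36% with CCL20, below the control shares of 19.1% and 16.4%.

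LCN2 (chromosome 9, 128149071 to 128153455, plus strand), the siderophore-binding lipocalin, was at 18.6 and 19.2 FPKM in the controls and at 24.7 and 38.2 FPKM with CCL20. The controls were almost equal, and replicate 2 with CCL20 stood well above replicate 1. Means were 18.9 ± 0.414 and 31.5 ± 9.50 FPKM (SD, n = 2 each), and the gene rose 1.93-fold, by 0.95 on the log2 scale (SE 0.25; edgeR adjusted p = 0.0232). Leaving out control replicate 1 or control replicate 2 raised the adjusted p to 0.148 and 0.108 in edgeR.

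SLPI and PI3 are whey acidic protein family inhibitors that lie in the same region of chromosome 20, SLPI at 45252239 to 45254564 (minus strand) and PI3 at 45174876 to 45176544 (plus strand). SLPI, which blocks neutrophil elastase and cathepsin G, was at 16.6 and 14.1 FPKM in the controls and at 32.1 and 28.6 FPKM with CCL20. The groups were well apart, at 15.3 ± 1.74 and 30.4 ± 2.46 FPKM (SD, n = 2 each). SLPI rose 2.29-fold, a log2 change of 1.19 with SE 0.20 (edgeR adjusted p = 0.00629), and without control replicate 2 the adjusted p was 0.088. PI3, which inhibits elastase and proteinase 3, had 4 and 4 reads in the controls and 7 and 20 with CCL20, or 0.507, 0.388, 0.790 and 2.05 FPKM. Its overexpression libraries were both higher but far apart from each other, and in an edgeR fit with no filter on low values its log2 fold change was 1.93 (SE 0.87, adjusted p = 0.122).

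Among the beta-defensins, DEFB4B had 12 and 9 reads in the controls and 36 and 29 with CCL20, or 2.64 and 1.52 against 7.06 and 5.18 FPKM. Both overexpression libraries lay above both controls. At means of 2.08 ± 0.795 and 6.12 ± 1.33 FPKM (SD, n = 2 each) the gene rose 3.42-fold. Its log2 fold change was 1.77 (SE 0.49; edgeR adjusted p = 0.0286). The call was lost without control replicate 1 (adjusted p = 0.0994) and without control replicate 2 (edgeR adjusted p = 0.260). The coding sequences of DEFB4A and DEFB4B were identical at 191 of 192 bases (99.5%), and 66.5% of the 100-base windows of DEFB4B also occurred in DEFB4A. With DEFB4A absent from the tables, the DEFB4B value may hold reads of either copy. DEFB1, the beta-defensin that epithelia make without induction, had 2 and 1 reads in the controls and 4 and 10 with CCL20 (0.306, 0.117, 0.545 and 1.24 FPKM). Its groups did not overlap at these few reads, and its log2 fold change without a filter was 2.31 (SE 1.44, edgeR adjusted p = 0.337).

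By level per length in control cells, SAA1 came first but overlapped LCN2, and both SLPI values lay below both of theirs. DEFB4B and SAA2 followed and overlapped each other, then PI3, then DEFB1. With CCL20 the SAA1 values were above all others, those of SLPI fell inside the range of LCN2, and DEFB4B came next. PI3, SAA2 and DEFB1 overlapped there and could not be ranked. The FPKM of SAA2 is computed over 2227 bases of exon, more than its 563-base main mRNA, which lowers the value beside that of SAA1, whose gene length is 796 bases.

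The mRNAs of the group are among the shortest in the cell, from 332 bases for DEFB4B to 835 for LCN2 among the 5 tested, where the median tested coding gene had 2997. Fold change ran with mRNA length across the whole table. Among the 1058 coding genes of the shortest length decile (207 to 1271 bases), the median log2 fold change was 0.98, and 73.2% were called higher. In the longest decile the median was -0.73. All 5 tested genes lay in the shortest decile, so 4 of 5 called higher stands beside 73.2% there and 16.5% overall.

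Within that decile the genes took different places. DEFB4B was exceeded in log2 fold change by 9 of the 1057 other genes and SAA1 by 34. SLPI was exceeded by 288, LCN2 by 561 and SAA2 by 1004. By fold change alone, DEFB4B and SAA1 thus lay near the top of genes of like length, LCN2 in the middle and SAA2 near the bottom. These places take no account of error. The SE was 0.49 for DEFB4B, on 9 to 36 reads a library, and 0.47 for SAA2, whose sign depended on single libraries.

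**Figure D3:**
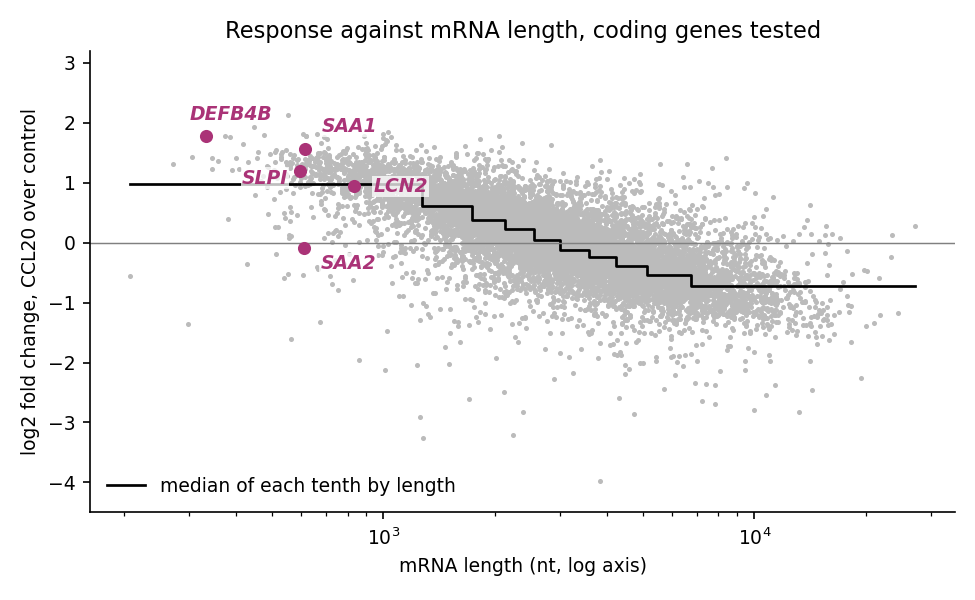
Log2 fold change, CCL20 over control, against mRNA length in bases (log axis) for the coding genes tested (grey), with the 5 tested antimicrobial and acute-phase genes named. All 5 are in the shortest decile, where the median is 0.98, and SAA1 and DEFB4B lie above most genes of similar length while SAA2 lies below.

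In an edgeR fit with an mRNA length offset (a smooth function of mRNA length removed from each library, coding genes only), 0 of the 5 passed, beside 3.63% of all genes called higher. At an unadjusted p under 0.05 only SAA1 did, 1 of 5, and the share of all genes at that threshold was not computed. The log2 fold changes were 0.57 for SAA1 (adjusted p = 0.102 in edgeR), 0.76 for DEFB4B (0.413), 0.21 for SLPI (0.592), 0.030 for LCN2 (0.948) and -1.03 for SAA2 (0.266). The SAA1 and SAA2 sum was at 0.39 (edgeR adjusted p = 0.245). The median of the 5 was 0.21 with the offset, against 0.03 over all genes.

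Other scalings gave values between these. With an offset for the gene length the authors divided by, 3 of 5 were called higher, beside 9.95% of all tested genes: SAA1 at 1.17 (edgeR adjusted p = 0.0122), SLPI at 0.90 (0.0273) and DEFB4B at 1.76 (0.0493). On the TPM scale (level per length as a share of each library), which moved the median of all genes to -0.50, 2 of 5 were called higher, beside 3.96%: SAA1 at 1.05 (edgeR adjusted p = 0.0102) and SLPI at 0.69 (0.0438). SAA1, LCN2, SLPI and DEFB4B kept a positive sign under each of these scalings, and SAA2 a negative one. No value here measures RNA integrity or fragment length, and the cause of the length relation was not tested.

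**Figure D4:**
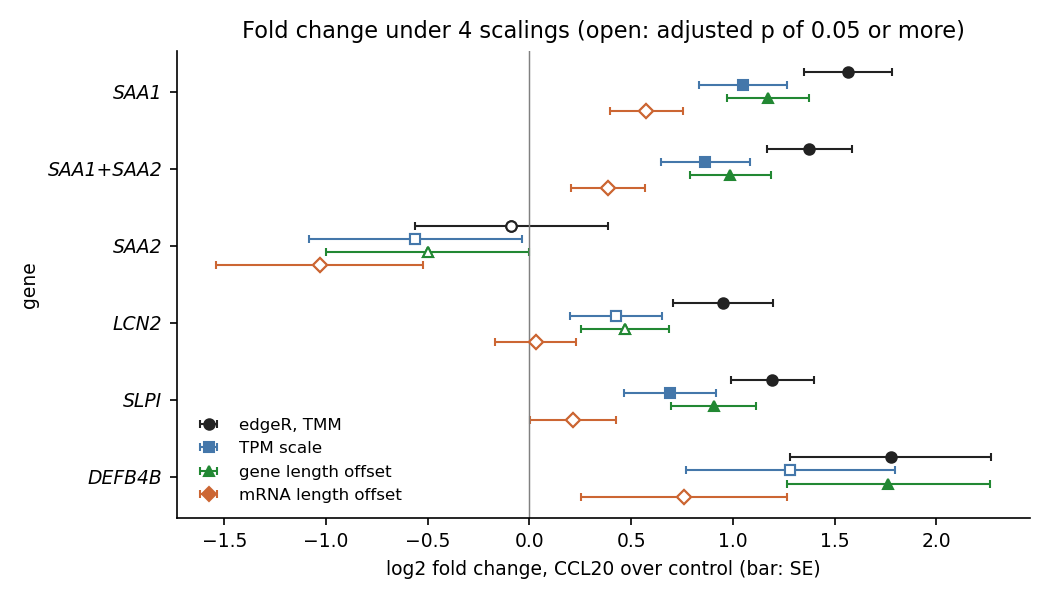
Log2 fold change with its SE for each tested gene and for the sum of SAA1 and SAA2 under 4 scalings, filled where the edgeR adjusted p is under 0.05. Under the mRNA length offset every symbol is open and SAA2 is at -1.03, while SAA1 is filled under the other scalings.

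The wider host-defence genes came from lists of the same pathways. Their counts stand beside 16.5% of all tested genes called higher and 15.7% lower in edgeR, and 3.63% called higher with the mRNA length offset. For counts at an unadjusted p under 0.05, the share of all genes was not computed. Of 40 other epithelial antimicrobial genes, 24 were listed and 9 tested. S100A9, LGALS3 and ADM rose and DEFB131B fell, though S100A9 (-0.05) and LGALS3 (-0.11) changed sign with the mRNA length offset. The median was 0.15 on the log2 scale. S100A9, a calprotectin subunit that withholds zinc and manganese, went from 16.9 ± 0.834 to 28.4 ± 9.29 FPKM (SD, n = 2 each; log2 fold change 0.97, edgeR adjusted p = 0.0331). RNASE7, a skin and oral ribonuclease with antibacterial action and the highest of the list, was at 45.2 ± 2.58 and 38.3 ± 6.03 FPKM (log2 fold change -0.04, edgeR adjusted p = 0.870). DEFB131B, a further beta-defensin, had 22 and 8 reads in the controls and 0 in both overexpression libraries, at least 4.78-fold lower against a floor of 3 counts per library. It entered the test through its control values alone. With the mRNA length offset DEFB131B alone was called, as lower, and 3 of the 9 were lower and 0 higher at an unadjusted p under 0.05 in edgeR.

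Of 30 acute-phase and complement genes, 24 were listed and 9 tested, and 2 rose: FTL, the ferritin light chain, 2.01-fold from 1292 ± 210.1 to 2250 ± 189.7 FPKM (SD, n = 2 each; edgeR adjusted p = 0.00621), and SERPINA1, alpha-1-antitrypsin, from 8.15 ± 0.339 to 10.7 ± 0.969 FPKM (SD, n = 2 each; log2 fold change 0.61, edgeR adjusted p = 0.0345). Both calls were lost with the mRNA length offset, where FTL was at 0.13 (edgeR adjusted p = 0.686) and SERPINA1 at 0.23 (0.426). Complement C3 was at 69.5 ± 4.98 and 43.4 ± 6.80 FPKM (log2 fold change -0.47, edgeR adjusted p = 0.088). At an unadjusted p under 0.05 C3 was the 1 gene of this list that was lower, and DESeq2 called 0 lower. On the TPM scale the list had 0 higher and 2 lower calls in edgeR, with C3 at -0.98 (adjusted p = 0.00585).

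Of 26 genes of the protease inhibitor list, to which SLPI and PI3 belong by function, 23 were listed and 13 tested. Of the 13, 8 rose and 0 fell, beside 16.5% of all tested genes called higher and 15.7% lower. The 13 had a median mRNA length of 1749 bases, and in the shortest length decile 73.2% were called higher. The 8 were WFDC2, WFDC3, SERPINB6, SPINT2, CSTA, CSTB, CST3 and CST6. With the mRNA length offset SERPINB6 was at -0.0028 and the others stayed positive. WFDC2, a whey acidic protein relative of SLPI, went from 56.5 ± 3.31 to 104 ± 1.54 FPKM (SD, n = 2 each; log2 fold change 1.09, edgeR adjusted p = 0.00485). CST3, the secreted cysteine protease inhibitor cystatin C, went from 39.0 ± 3.88 to 85.9 ± 7.32 FPKM (log2 fold change 1.35, edgeR adjusted p = 0.00433). With the mRNA length offset 0 of 13 passed, beside 3.63% of all genes called higher, with WFDC2 at 0.11 and CST3 at 0.46. At an unadjusted p under 0.05 in that edgeR fit 4 were higher, and the share of all genes at that threshold was not computed. The median of the list was 0.60, and 0.16 with that offset.

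Upstream receptors and inducers showed no common direction in the main edgeR fit. Of 38 genes, 26 were tested, 4 rose (IL17RC, IL20RB, IL6 and LY96) and 5 fell (IL6R, IL6ST, OSMR, LIFR and NOD1), with a median of -0.04. Beside these, 16.5% of all tested genes were called higher and 15.7% lower. On the TPM scale 1 of the 26 was called higher and 13 lower in edgeR, where 482 and 4585 of all 12168 tested genes were. IL1B, an inducer of these antimicrobial genes, was at 82.5 ± 0.162 and 98.1 ± 3.59 FPKM (SD, n = 2 each; log2 fold change 0.46, edgeR adjusted p = 0.0518), and IL1A at 0.02 (0.938). IL20RB, a subunit of the IL-20 receptors, went from 0.801 ± 0.213 to 2.40 ± 0.266 FPKM (log2 fold change 1.77, edgeR adjusted p = 0.00769). NOD1, a sensor of bacterial peptidoglycan, went from 1.98 ± 0.219 to 0.645 ± 0.114 FPKM (log2 fold change -1.41, edgeR adjusted p = 0.00611). Both kept their calls with the mRNA length offset, IL20RB at 1.48 (adjusted p = 0.0306) and NOD1 at -1.06 (edgeR adjusted p = 0.0318), while the other 7 did not. Each was under 1 FPKM in its lower group and reached the mean needed for the test only through the other group. The filter thus favoured a difference in these genes.

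Among transcription factors that act on antimicrobial genes, 22 of 25 were tested, RELB rose and NFKBIZ, STAT3, EHF, VDR and SP1 fell. Among the 22 tested the largest fall was that of EHF, an epithelial ETS factor, at 158 and 146 FPKM in the controls and 41.5 and 24.2 FPKM with CCL20. It fell 4.05-fold, a log2 change of -2.02 with SE 0.23 (edgeR adjusted p = 0.00433), and under the mRNA length offset the change was -2.56 (edgeR adjusted p = 0.00661). REL, an NF-kappaB subunit whose mean was under 1 FPKM, had 358 and 300 reads in the controls and 68 and 37 with CCL20. In an edgeR fit with no filter on low values its log2 fold change was -2.45 (adjusted p = 3.6e-16). That fit gave SAA1 an adjusted p of 3.2e-10, against 0.00434 in the main edgeR fit. The p of REL is therefore not comparable with those beside it. REL was not in the fit with the mRNA length offset. SP1, a general GC-box factor, went from 13.0 ± 0.715 to 4.83 ± 0.604 FPKM (SD, n = 2 each; log2 fold change -1.23, edgeR adjusted p = 0.00433), and with the offset was at -1.21 (edgeR adjusted p = 0.00975). NFKBIZ, which encodes the NF-kappaB cofactor IkappaB-zeta needed for LCN2 and DEFB4 induction by IL-17, went from 13.9 ± 0.221 to 7.11 ± 1.14 FPKM (log2 fold change -0.77, edgeR adjusted p = 0.0134), and with the offset was at -0.52 (adjusted p = 0.0901). So EHF and SP1 were the 2 factors lower under both treatments of length among those tested, in the same libraries in which SAA1, LCN2, SLPI and DEFB4B were higher on the count scale. Whether these go together was not tested.

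**Figure D5:**
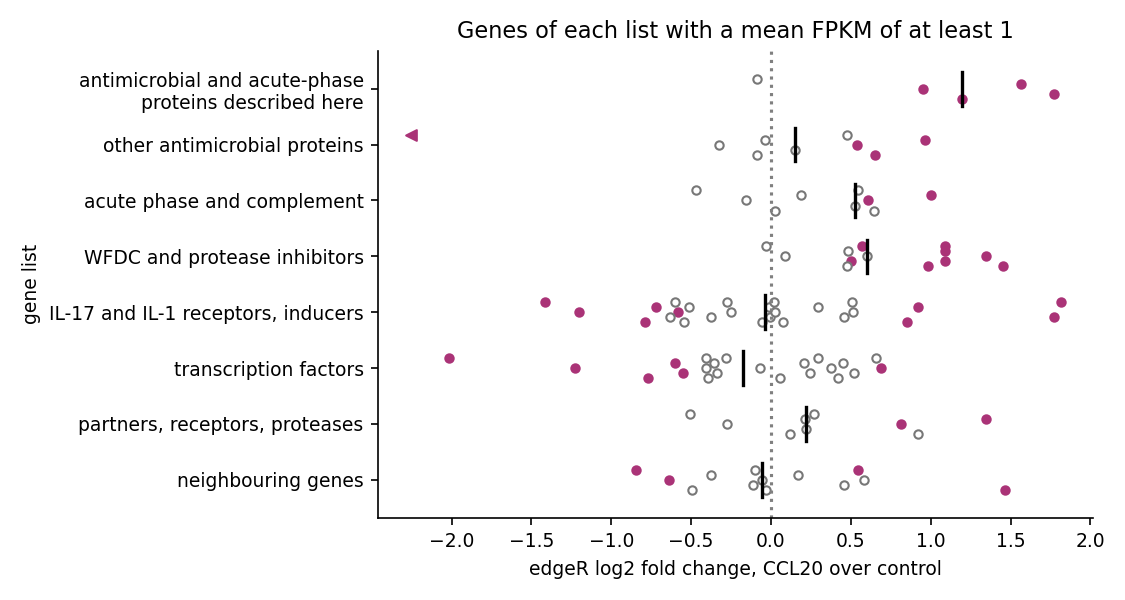
EdgeR log2 fold change of each tested gene, by list (filled: adjusted p under 0.05; black bar: list median; dotted line: median of all tested genes). The triangle is DEFB131B, with 0 reads in both overexpression libraries, drawn at its bound of -2.26. The 5 genes described here have a median of 1.19, the transcription factors one of -0.18, and EHF is the lowest of the tested factors at -2.02.

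Many of the proteins that the group acts on or binds were not listed. Of 27 partners, receptors and target proteases, 16 were listed and 9 tested. The receptor CCR6, the proteases ELANE, PRTN3 and CTSG, FPR1, the SAA receptor FPR2, and MMP9, which LCN2 binds, had no row. ANXA2, a membrane protein bound by SLPI, rose from 234 ± 5.87 to 356 ± 5.26 FPKM (SD, n = 2 each; log2 fold change 0.81, edgeR adjusted p = 0.00769), and CST3, also in this list, rose as above. Neither call held with the mRNA length offset, where ANXA2 was at 0.21 (edgeR adjusted p = 0.371) and CST3 at 0.46 (0.110). GRN, the growth factor precursor that SLPI protects from cleavage, was at 100.1 ± 7.87 and 104 ± 22.4 FPKM (log2 fold change 0.27, edgeR adjusted p = 0.335).

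Genes beside the group on their chromosomes moved in both directions. Of 35, 13 were tested, LDHA near the serum amyloid genes and C9orf16 near LCN2 rose, and DNM1 near LCN2 and STK4 near PI3 fell. LDHA was at 0.54 (edgeR adjusted p = 0.0441), C9orf16 at 1.46 (0.0053), DNM1 at -0.64 (0.0394) and STK4 at -0.84 (0.0132) on the log2 scale, and with the mRNA length offset 0 of the 13 passed in edgeR, 2 being higher and 2 lower at an unadjusted p under 0.05.

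Across the 4 libraries, the coding genes whose centred log2 CPM (counts scaled to library size) were closest to each gene's were found by Euclidean distance among 10571 genes. For SAA1 they were GADD45GIP1 (distance 0.0706) and SCAND1 (0.102), and for SAA2 CEP44 (0.170) and UMAD1 (0.216). For LCN2 they were C12orf10 (0.0396) and CAPG (0.0532), and for SLPI RPS25 (0.0250) and SELENOK (0.0275). DEFB4B had no neighbour as near, with MT2A at 0.227 and RPS21 at 0.257.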

How the data were processed

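CAL27 libraries, 2 labelled negative control and 2 CCL20 overexpression, were grouped by their treatment label. The genes and lists described here were chosen with earlier results of these data known. The authors deposited gene read counts; the submitters' processing notes name HISAT2, HTSeq 0.13.5 and GRCh38, without their roles. The sources used here give no strand setting or annotation. Their deposited FPKM equals the count divided by a whole-number gene length and the library total, to within 0.0001 bases. All 29437 genes matched GENCODE 29, which supplied positions and sequences.

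Counts were tested in edgeR 4.0.16 (R 4.3.3; quasi-likelihood, TMM factors, two-sided, Benjamini-Hochberg threshold 0.05) over the 12168 genes whose mean FPKM reached 1. Length offsets were natural splines with 5 df, fitted per library. Alternatives were DESeq2 1.42.0, limma 3.58.1 on log2(FPKM + 1) and log2(FPKM + 0.1), TPM and total count scaling, other filters, a replicate block, each library left out and, added after seeing the data, coding genes only. Totals ran from 13681862 to 17860695 reads. Genes named besides the 8 were the 3 highest by FPKM and up to 3 with the smallest edgeR p of each list, and the 2 nearest in pattern. Genes named only as called complete a count and, with KRT14, SAA4 and REL, were chosen after their values were seen; CCL20 is the label check.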

Additional observations from a re-analysis of the deposited data

How the results depend on the processing

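The number of genes higher, 2010, and lower, 1905, moved with the scaling: 1275 and 2963 by total count, 482 and 4585 on the TPM scale, 1211 and 721 with the gene length offset, and 384 and 337 with the mRNA length offset. They were 1228 and 2610 in limma on log2(FPKM + 1), 916 and 2211 on log2(FPKM + 0.1), and 705 and 615 at an adjusted p under 0.01. With 1 library left out they ranged from 318 to 3742 higher and from 332 to 3837 lower; the lone library of a group is then assumed to vary like the other pair.

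SAA1 lost its call with the mRNA length offset (0.57) and kept it in the 18 other settings, and the SAA1 and SAA2 sum likewise (0.39). SLPI lost it with that offset (0.21). LCN2 lost it there (0.030), on the TPM scale (0.42), with the gene length offset (0.47) and that offset with the replicate block (0.44), in limma (0.67 and 0.70) and at an adjusted p under 0.01 (0.95). DEFB4B lost it on the TPM scale (1.28), with the mRNA length offset (0.76) and at 0.01 (1.77). Calls were also lost with a control library left out. These were SLPI without control replicate 2 (1.08), LCN2 without control replicate 1 (0.93) or 2 (0.98), and DEFB4B without control replicate 1 (2.19) or 2 (1.40). The cause was not tested. Leaving out 1 library gave 1.40 to 1.74 for SAA1, -0.92 to 0.45 for SAA2, whose sign reversed without control replicate 1 (0.23) and overexpression replicate 2 (0.45), 0.54 to 1.26 for LCN2, 1.08 to 1.31 for SLPI, 1.40 to 2.19 for DEFB4B and 1.19 to 1.58 for the sum. In FPKM in place of counts the mean share of SAA2 was 7.18% in controls and 2.55% with CCL20, against 17.8% and 6.75%. The share of DEFB4A could not be computed.

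Groups share replicate numbers, which the labels do not say mark a shared culture; the differences between replicate 1 and 2 correlated over genes at r = 0.328. With a replicate block the calls were 2840 higher and 2918 lower, and SAA1 was at 1.56, SAA2 at -0.18, LCN2 at 0.91, SLPI at 1.19 and DEFB4B at 1.77; it changed no call among these 5. PI3, DEFB1 and DEFB4B rest on at most 36 reads a library, which limits their precision.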
